A study of Danio rerio with 1536 samples.

Results

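The gene esrrga (ENSDARG00000004861), which encodes an orphan nuclear receptor of the estrogen-related receptor family, was followed through single neurons of the adult zebrafish spinal cord. It was chosen by its identifier and is 1 of 32519 genes in the tables. The cells came from animals of either sex at 7 weeks of age. Motor neurons (MNs) came from the Tg(isl1a:GFP) line, in which GFP is driven by isl1a sequences and also marks neurons that are not MNs. V2a interneurons (INs), excitatory neurons that drive MNs, came from the Tg(chx10:GFP) line, in which GFP marks these cells. From each line, 2 pools of 6 to 10 spinal cords were dissociated, and nucleated GFP+ cells were sorted singly into plates for Smart-seq2, which reads full-length transcripts without molecular identifiers. Each plate holds 1 pool, so the plate is the replicate (n = 2 per line), and line cannot be told apart from pool and sort. Read counts without molecular identifiers are not counts of molecules, and intervals below cover counting error only.

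Estrogen-related receptors bind DNA and act on transcription without a known steroid ligand. In mouse, with coactivators of the PGC-1 family, they act on genes of mitochondrial energy metabolism, and Esrrg is known as a marker of gamma MNs, which innervate muscle spindles. The zebrafish genes of the family in the tables are esrra, esrrb, esrrd, esrrga and esrrgb.

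Of 1536 wells, 1247 held 2000 to 9000 detected genes and at most 30% spike-in reads. By plate, 259 and 363 wells of isl1a:GFP cells passed, as did 300 and 325 of chx10:GFP cells, with a median of between 324159 and 436783 counts per well. The cells were clustered without the receptor family among the genes used, and the clusters were named from markers. On the isl1a:GFP plates, 122 and 213 cells were MN-like, and 137 and 150 were other cells. The MN factor isl1a had reads in 100% and 98.6% of MN-like cells. It also had reads in 94.2% and 96% of other isl1a:GFP cells, so its share does not set MN-like cells apart within the line. The enzyme of acetylcholine synthesis, chata, had reads in 94.3% and 91.1% of MN-like cells and in 58% and 74.5% of chx10:GFP cells. Its share in other isl1a:GFP cells was lower than both on each plate. The MN factor mnx1 had reads in 45.1% and 56.8% of MN-like cells. Its shares were 1.46% and 11.3% in other isl1a:GFP cells, and 3% and 3.38% in chx10:GFP cells. The 4 markers of glutamatergic neurons, a class that V2a INs belong to, summed to 780.1 and 710.3 CPM (counts scaled to a common library total) in chx10:GFP cells, with 11.9 and 21.2 CPM in MN-like cells. Reads of other cell types were present too. The 6 oligodendrocyte markers summed to 1117 and 3242 CPM in MN-like cells and to 2258 and 5728 CPM in chx10:GFP cells. On plate 2 they were highest in the classes named below as immature MN-like (8993 CPM) and shox2 V2a-like (9311 CPM). The median cells of these classes had 158 and 945 CPM, so the sums were carried by part of the cells. The part of these markers in the results was not tested.

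MN-like cells carried more esrrga reads than chx10:GFP cells on every plate. Over the summed counts of a plate, esrrga stood at 781 and 406 CPM in MN-like cells (39698 and 38317 reads) and at 209 and 182 CPM in chx10:GFP cells (20121 and 21639 reads). The other isl1a:GFP cells had 10.1 and 11.01 CPM. The lowest MN-like plate lay above the highest chx10:GFP plate, but the MN-like plates differed widely, with 594 ± 265 CPM (SD, n = 2) against 195 ± 19.7 CPM (SD, n = 2). The difference on the log2 scale was 1.69 (SE 0.39). With edgeR's quasi-likelihood test and Benjamini-Hochberg adjustment over 22804 genes, it did not pass 0.05 (p = 0.00438, adjusted p = 0.151). Of all genes tested, 145 (0.636%) passed, of which 63 (0.276%) were higher in MN-like cells and 82 (0.36%) lower. The level on the isl1a:GFP side was higher under each of 12 alternatives. With all passing isl1a:GFP wells (log2 difference 0.70), that side also held cells that were not MN-like. A limit of 30% mitochondrial reads removed no wells, so it repeated the main fit. In all, 5 of the 12 passed the threshold. Of these 5, the fits without isl1a:GFP plate 1 (1.19, adjusted p = 0.0366 by edgeR) and without isl1a:GFP plate 2 (2.07, adjusted p = 0.00659) leave 1 MN-like plate, which is assumed to vary like the chx10:GFP plates, so the gap between the MN-like plates does not enter. Where a chx10:GFP plate was left out, so that the spread came from the MN-like plates, adjusted p was 0.708 and 0.716.

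Within the isl1a:GFP line, reads of esrrga were concentrated in MN-like cells. These made up 47.1% and 58.7% of the cells of the plates and held 98.6% and 98.1% of the esrrga reads. After each cell was thinned to 240501 counts, which left out 125 shallower cells, reads were found in 84.8% (95% interval 76.8 to 90.9, exact binomial) and 63.4% (56.4 to 70.0) of MN-like cells. The shares were 53.8% (47.6 to 60.0) and 47.1% (41.1 to 53.2) in chx10:GFP cells. In cells with markers of cerebrospinal-fluid-contacting (CSF-contacting) neurons, a sensory type in which the gene had next to no reads, the shares were 9.46% and 6.52%. Without thinning they were 83.6% and 64.3% in MN-like cells, 54.3% and 48.6% in chx10:GFP cells, and 14.7% and 10.4% in CSF-contacting neuron-like cells, at median depths of 413857 and 436202, 324159 and 367903, and 414434 and 429429 counts. Since this class was picked for its few reads, the other non-MN classes of the line matter too, with thinned shares of 7.41% and 24.1% in serotonergic-like cells and 12.5% and 30.4% in unnamed ones. Shares in MN-like cells lay above each of these on the same plate. The chx10:GFP plates hold no such class of their own, so their shares were set against no background from the same plate.

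Levels of esrrga were graded from cell to cell rather than uniform. In MN-like cells, the lowest level was 0, the median 498 CPM and the highest 2767 CPM on plate 1, and on plate 2 they were 0, 217 and 2598 CPM. In chx10:GFP cells they were 0, 10.9 and 2122 CPM on plate 1, and 0, 0 and 3268 CPM on plate 2. The highest single cells of both lines thus reached similar levels. Among cells with reads only, the median stood at 703 and 550 CPM in MN-like cells, and in chx10:GFP cells at 242 and 239 CPM, so the lines differed both in how many cells had reads and in the level of those that did. Levels above 1000 CPM were found in 44 of 122 and 29 of 213 MN-like cells, against 13 of 300 and 11 of 325 chx10:GFP cells. Cells between 100 and 1000 CPM made up 36.1% and 44.1% of MN-like cells and 36.0% and 29.5% of chx10:GFP cells.

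**Figure D1:**
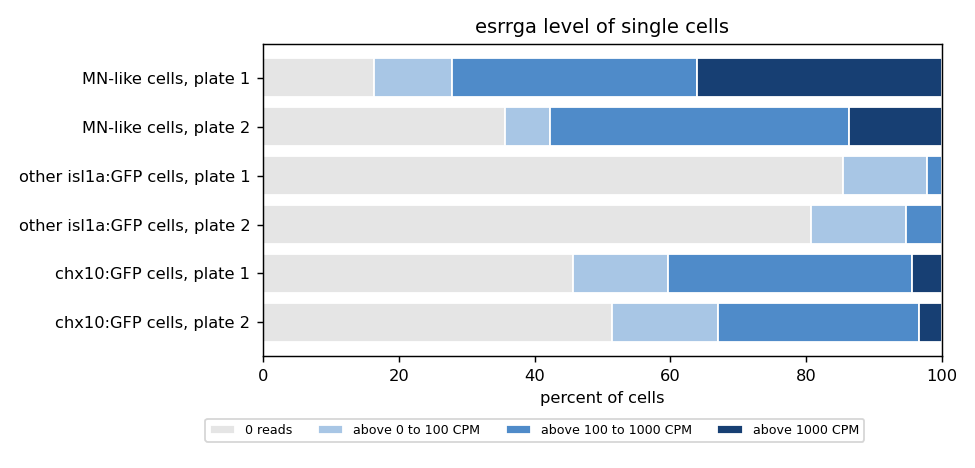
Percent of cells (x axis) with 0 reads of esrrga, with up to 100 CPM, with 100 to 1000 CPM and above 1000 CPM, for each population and plate (rows). Cells with 0 reads made up 16.4% and 35.7% of MN-like cells, 45.7% and 51.4% of chx10:GFP cells and 85.4% and 80.7% of other isl1a:GFP cells.

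The level of esrrga differed between classes of MNs. Classes were named after markers of slow or intermediate, fast, caudal and immature MNs, and since the study names esrrga for its pattern over classes, their levels are given without a test. Slow or intermediate MN-like cells stood at 961 and 791 CPM (59 and 50 cells), with reads in 94.9% and 90.0% of cells and a median cell of 921 and 786 CPM. The class named caudal, after hox13 genes, stood at 851 and 371 CPM (39 and 57 cells). Reads of a caudal marker were found in only 14 and 28 of its cells, and its summed caudal markers (348 and 821 CPM) matched those of fast MN-like cells on plate 1 (348 and 173.1 CPM), so these markers set it apart from fast MN-like cells on plate 2 only. With 15 principal components the caudal class shrank to 26 cells of both plates, with esrrga at 274 and 199 CPM, and at a resolution of 0.8 to 57 cells, at 286 and 218 CPM. Fast MN-like cells stood at 100.2 and 527 CPM, but plate 1 held only 9 of them against 46 on plate 2. Immature MN-like cells were lowest among MNs, at 111 and 26.2 CPM (15 and 60 cells), and 8 of 15 and 50 of 60 of them had no read. In this order of plate means (876, 611, 314 and 68.8 CPM), each class overlapped with its neighbour over the plates, so the order of neighbours is not resolved beyond the spread, and the place of the caudal class depends on the clustering, while slow or intermediate MN-like cells did not overlap with immature ones on either plate.

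The share of each class differed between the isl1a:GFP plates, beside the difference in the level of esrrga between them. Immature cells made up 15 of 122 MN-like cells on plate 1 and 60 of 213 on plate 2. Within single classes, plate 1 was higher in slow or intermediate, caudal and immature MN-like cells and lower in fast MN-like cells. The summed markers of immature neurons also differed between the plates within each class. They stood at 2006 and 5951 CPM in slow or intermediate MN-like cells and at 2664 and 9003 CPM in caudal ones. In fast MN-like cells they stood at 2901 and 9005 CPM, and in immature ones at 13817 and 19775 CPM. What part this has in the gap between the plates was not tested. Without the immature classes of both lines, a choice made after seeing the data, the difference between the lines was 1.85 (adjusted p = 0.0564 by edgeR).

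Slow or intermediate MN-like cells fell into 2 clusters, and one of them had the highest plate mean of any cluster. It stood at 1189 and 865 CPM (28 and 19 cells), with a read in every cell of plate 1 and in all but 1 of plate 2. The other stood at 742 and 749 CPM (31 and 31 cells), with 3 and 4 cells without a read.

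Among V2a INs, the level of esrrga also differed between classes on both plates. The class with markers of slow V2a INs, among them sp8a and oxr1a, stood highest at 364 and 528 CPM (78 and 48 cells), with reads in 88.5% and 89.6% of its cells. Its name rests on few markers. The 4 markers summed to 1469 and 1243 CPM in this class, beside 958 and 716 CPM in the shox2 class below. The larger of its clusters (76 cells) had 0 of them among its 10 leading genes. Cholinergic V2a-like cells stood at 222 and 169 CPM (132 and 146 cells), and 55.3% and 52.7% of them had reads. Cells marked by shox2, a homeobox factor, stood at 81.3 and 55.4 CPM (79 and 72 cells), with reads in 26.6% and 33.3%. Over the plates, the slow class did not overlap with the cholinergic one, nor the cholinergic with the shox2 class. Immature V2a-like cells had no read in 11 cells on plate 1, which allows a share of up to 28.5% (exact binomial), and 94.7 CPM in 59 cells on plate 2, a range that overlapped with the shox2 class.

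Clusters within the V2a classes were graded again. Of the 2 slow V2a-like clusters, one stood at 538 and 832 CPM and the other at 226 and 352.8 CPM. Cholinergic V2a-like cells split into a cluster at 334 and 306 CPM and one at 137 and 115 CPM. Over the plates, the higher cholinergic cluster overlapped with the lower slow V2a-like one, so these classes did not separate cluster by cluster. The higher slow V2a-like cluster held 34 and 16 cells, of which 5 and 2 had no read.

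**Figure D2:**
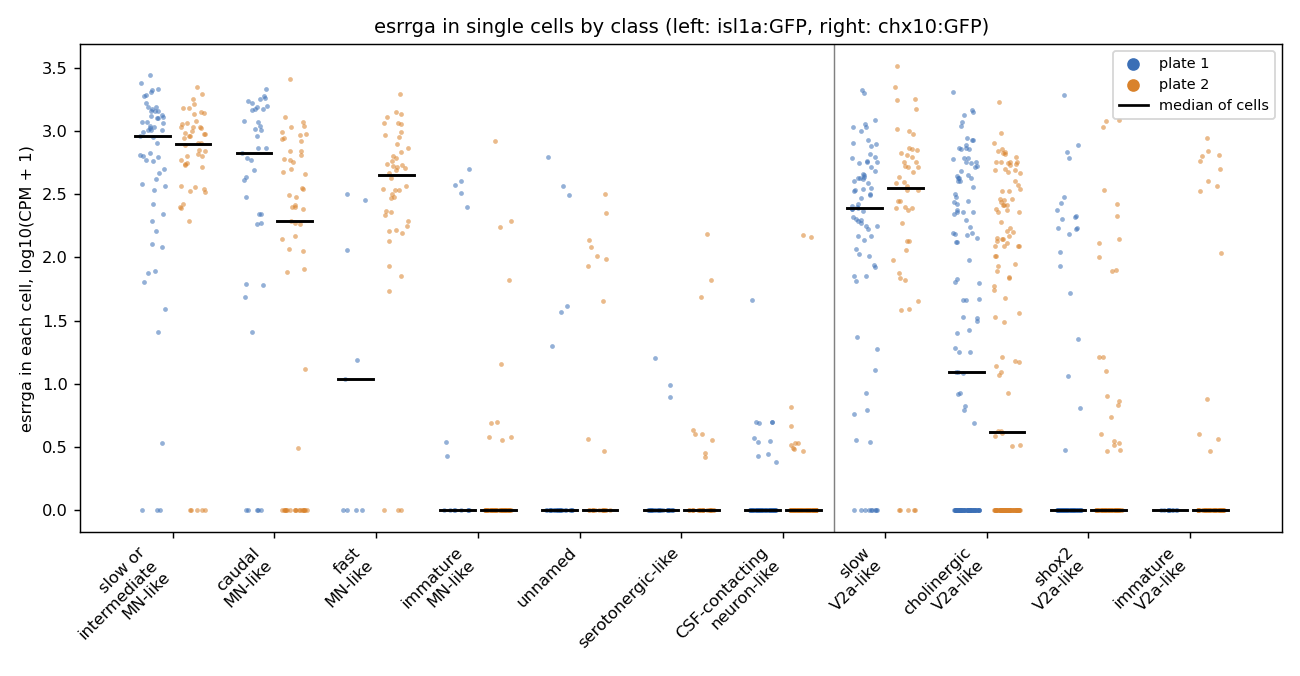
Level of esrrga in single cells, as log10(CPM + 1), by class and plate, with isl1a:GFP classes to the left and chx10:GFP classes to the right of the line; black bars are medians over cells. Slow or intermediate MN-like cells and slow V2a-like cells lie mostly above 0, while the medians of immature, serotonergic, CSF-contacting, unnamed and shox2 cells lie at 0 on both plates.

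The other isl1a:GFP classes had low levels. The unnamed isl1a:GFP cluster, led by glutamatergic genes, stood at 47.3 and 42.5 CPM (31 and 24 cells), serotonergic-like cells at 1.04 and 9.05 CPM (31 and 30 cells) and CSF-contacting neuron-like cells at 0.695 and 3.23 CPM (75 and 96 cells). The unnamed cluster lay above the serotonergic-like one on both plates, and the latter overlapped with CSF-contacting neuron-like cells.

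Levels of the other receptors of the family followed other patterns. The gene esrra, whose mouse counterpart acts on mitochondrial genes in many tissues, had 31.9 and 25.1 CPM in MN-like cells and 34.6 and 25.9 CPM in chx10:GFP cells, a log2 difference of 0.0094 (adjusted p = 0.995 by edgeR). The gene esrrb, known in mouse for its role in stem cells and the inner ear, had 28.7 and 21.4 CPM in MN-like cells and 5.93 and 11.8 CPM in chx10:GFP cells. Its plates did not overlap between the lines, but the log2 difference of 1.58 did not pass the threshold (adjusted p = 0.236 by edgeR). Beside esrrga, 3 genes of the family were tested, namely esrra, esrrb and esrrgb. Of these 3, only esrrb had an unadjusted p below 0.05 by edgeR, where 14.7% of all genes did. DESeq2 also called 1 of the 3, where it called 8.83% of all genes. Reads of esrrgb, the other copy of the mammalian Esrrg, were found in 2.46% and 1.41% of MN-like cells and 0.667% and 0.923% of chx10:GFP cells, and esrrd had at most 26 reads in any of these populations on a plate.

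Within lines, esrrb was highest in other classes than esrrga. In the class named caudal, esrrb stood at 68.8 and 66.6 CPM, against 10.7 and 13.3 CPM in slow or intermediate MN-like cells. It was no more than 4.01 CPM in fast and immature ones. In the main clustering, the caudal class had the next highest plate mean of esrrga after the slow or intermediate class, but this place depended on the clustering. With 15 principal components, esrrb stood at 135 and 142 CPM in the caudal class and esrrga at 274 and 199 CPM. At a resolution of 0.8, esrrb stood at 54.5 and 79.0 CPM there and esrrga at 286 and 218 CPM. Among V2a INs, esrrb was highest in shox2 V2a-like cells, at 19.8 and 38.6 CPM, where esrrga was low. In MN-like cells, most cells with esrrb reads also had esrrga reads (37 of 122 cells with both and 1 with esrrb only on plate 1, and 36 of 213 with both and 5 with esrrb only on plate 2). In chx10:GFP cells, 6 cells had both and 14 esrrb only on plate 1, and 12 both and 15 esrrb only on plate 2. Reads of esrrga were found in 83.6% and 64.3% of all MN-like cells and in 54.3% and 48.6% of all chx10:GFP cells. Whether the overlaps depart from these shares was not tested.

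**Figure D3:**
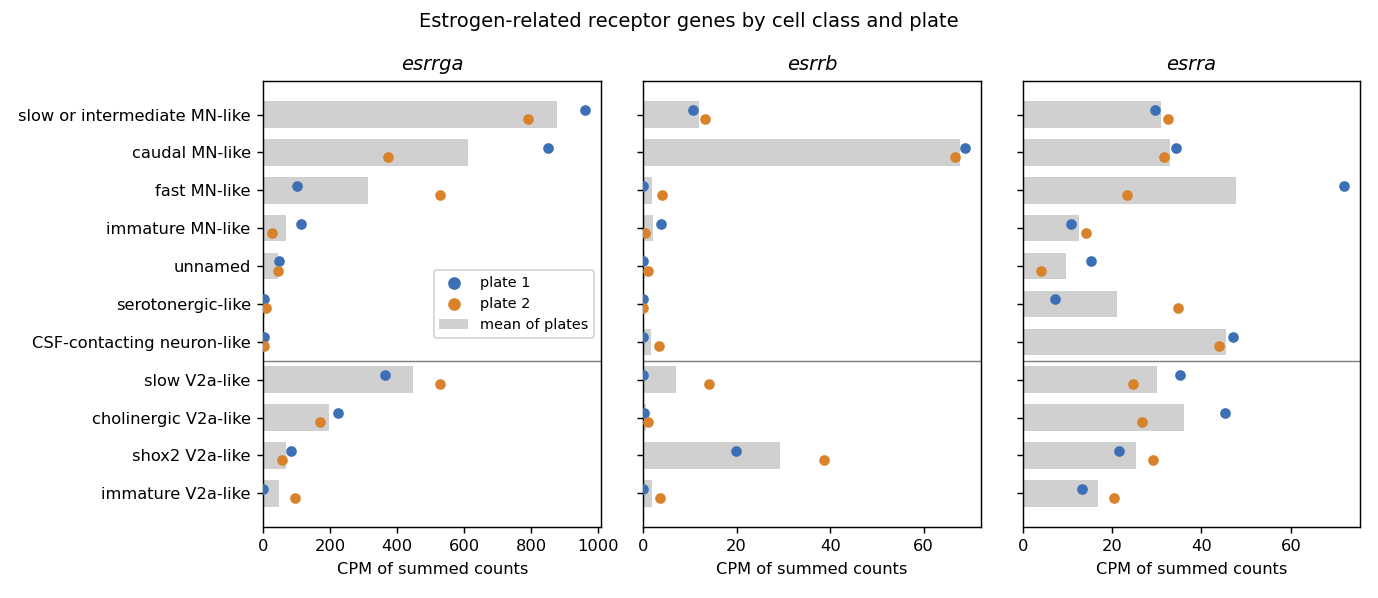
CPM of summed counts of esrrga, esrrb and esrra by cell class, with points for plates and bars for their mean, on an axis of its own for each gene. The highest classes are slow or intermediate MN-like cells for esrrga (961 and 791 CPM) and caudal MN-like cells for esrrb (68.8 and 66.6 CPM); levels are not comparable between genes, since they are not scaled to transcript length.

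Coregulators of these receptors showed no difference between the lines that passed the test. The coactivator ppargc1a, a PGC-1 family member, had 22.5 and 15.0 CPM in MN-like cells, beside 24.8 and 20.9 CPM in chx10:GFP cells, and its relative ppargc1b had 99.3 and 86.1 CPM against 151 and 108 CPM. Over the 12 coregulators tested, edgeR called 0, none at an unadjusted p below 0.05 (14.7% of all genes were), DESeq2 called 0 (8.83% of all genes), and the median log2 difference was -0.14, beside -0.023 over all genes. The 92 nuclear genes of the respiratory chain had a median of 0.085 and 0 calls by edgeR (5 at an unadjusted p below 0.05, and 2 by DESeq2), and the 19 of the citrate cycle a median of -0.017 and 0 calls (1 at an unadjusted p below 0.05, and 0 by DESeq2). The shares of both lists at these cuts lay below those of all genes.

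Next, the genes that varied with esrrga from cell to cell were sought within each plate. Spearman correlations with esrrga were computed across the MN-like cells of a plate (n = 122 and 213 cells) for the 10051 genes with reads in at least 10% of cells on both plates. The cells of a plate share pool and sort, and the correlations are a description without a test. A rho of at least 0.3 on both plates was found for 365 genes (3.63%) and of at most -0.3 for 28 (0.279%), with a median rho of 0.070 and 0.094 over all genes. Across genes, which are not independent replicates, rho of one plate correlated with rho of the other at r = 0.548. Correlations of esrrga with measures of the whole cell were looked at too. The level of esrrga itself had a rho of 0.27 and 0.51 with the number of genes detected, of 0.34 and -0.032 with the total count and of -0.23 and -0.54 with the share of ribosomal protein reads. With total count and number of genes held constant by partial correlation, 64 genes had 0.3 or above and 8 had -0.3 or below, and without immature MN-like cells, over 10421 genes that then passed the filter, 85 and 6. The number of genes detected also differed between classes. Its median was 4824 and 4992 in slow or intermediate and 2658 and 3266 in immature MN-like cells. Holding it constant may thus also remove differences between classes, so depth and class cannot be told apart here.

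The genes closest to esrrga in MN-like cells included genes of ion pumping, sugar metabolism and transmitter release. The highest was atp1a3a (rho 0.73 and 0.68), the neuronal alpha subunit of the Na+/K+ pump, and a gene listed as ATP1B1, a beta subunit of that pump, had 0.68 and 0.58. The lactate dehydrogenase gene LDHB had 0.64 and 0.64, and a gene listed as ALDOC, a glycolytic aldolase, 0.69 and 0.58. The complexin CPLX1, which acts on the vesicle fusion machinery, had 0.65 and 0.63. The others of the highest 10 were the protocadherin pcdh9 (0.64 and 0.65), oxr1a, whose product protects against oxidative damage (0.76 and 0.60), the growth factor bmp16 (0.74 and 0.60), the opsin opn7c (0.57 and 0.63) and birc6-as2, an antisense RNA (0.63 and 0.60). The reads carry no strand, so those of birc6-as2 cannot be told from reads of an overlapping gene. Without immature MN-like cells, all 10 had lower rho on both plates, between 0.50 and 0.72 on plate 1 and between 0.37 and 0.53 on plate 2.

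Between the lines, bmp16 stood at 2015 and 1708 CPM in MN-like against 32.1 and 25.1 CPM in chx10:GFP cells, and opn7c at 169 and 89.2 CPM against 1.56 and 0.436 CPM. Both entered the list through their reads in MN-like cells, and opn7c had reads in too few chx10:GFP cells to be compared there, so a higher level in MN-like cells was favoured by the choice and is a description. The gene atp1a3a went the other way, with 2048 and 1133 CPM in MN-like and 2872 and 3631 CPM in chx10:GFP cells, so its plates lay lower in MN-like cells, where esrrga was higher.

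The lowest genes included factors of neuron differentiation. The nuclear factor I genes NFIX (-0.46 and -0.46) and nfixa (-0.39 and -0.37), a gene listed as EBF1 (-0.39 and -0.44), nhlh2 (-0.38 and -0.49) and nkx6.1 (-0.38 and -0.37), all transcription factors, were among the lowest 10. So were the heparan sulfate sulfatases SULF2 (-0.41 and -0.42) and sulf2a (-0.39 and -0.50), with stap2a, myo10l3 and GSE1 between -0.41 and -0.51. Without immature MN-like cells, nhlh2 moved to -0.17 and -0.0091, and nkx6.1 to -0.28 and -0.0080, while SULF2 stood at -0.49 and -0.37. Most of the negative relations that could be compared were thus smaller among the mature classes, with SULF2 as an exception on plate 1. The gene nfixa had reads in too few of the remaining cells to be compared. Since nhlh2 and nkx6.1 are among the markers that named the immature class, their change was favoured by the choice and is a description.

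**Figure D4:**
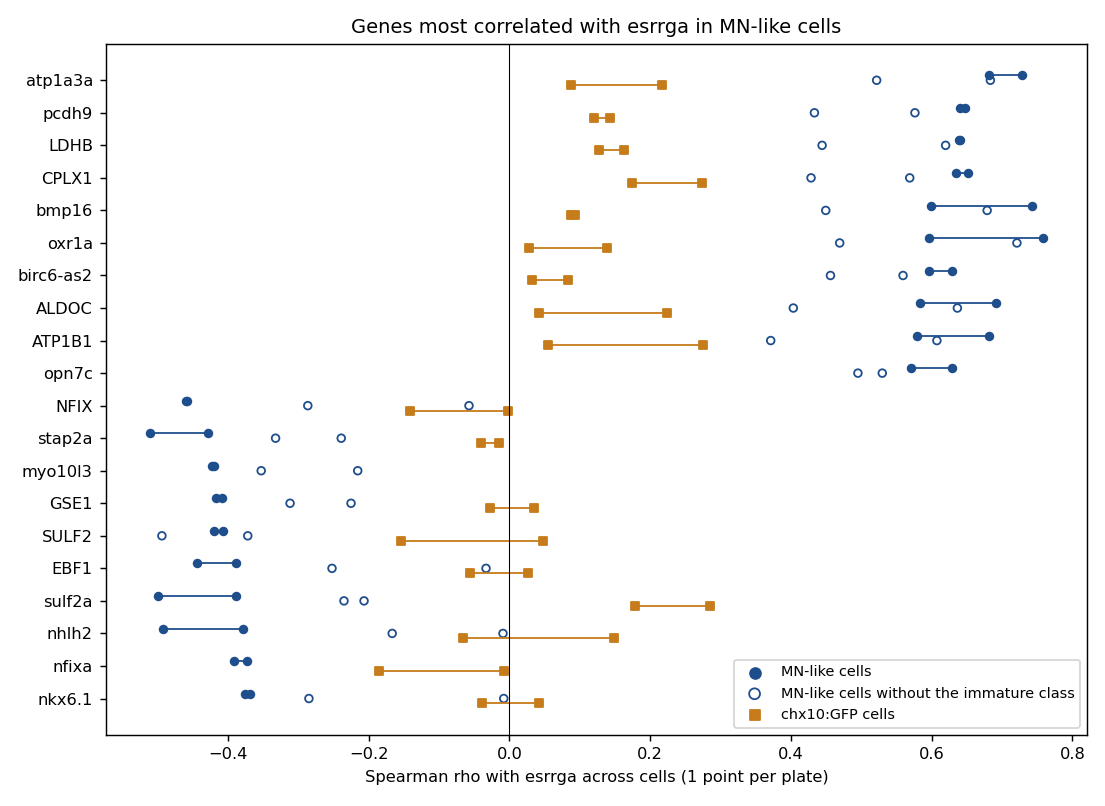
Spearman rho with esrrga across cells for the 10 highest and 10 lowest genes in MN-like cells, 1 point per plate, for MN-like cells (filled circles), the same without the immature class (open circles) and chx10:GFP cells (squares); a missing symbol stands for a gene with reads in too few cells. In chx10:GFP cells, the rho of those of the 10 highest genes that could be compared, all but opn7c, is at most 0.275.

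Genes of mitochondrial respiration varied with esrrga in MN-like cells. Of 85 nuclear respiratory chain genes compared, 36 had a rho of at least 0.3 on both plates, 0 had one of at most -0.3, and 83 were above 0 on both, with medians of 0.30 and 0.38. Over all genes, 3.63% reached 0.3 and 58.6% were above 0 on both plates. Examples are the ATP synthase subunit ATP5F1A (0.57 and 0.48), ndufa4b (0.47 and 0.66), the cytochrome oxidase subunit cox8b (0.48 and 0.51) and cox4i1l (0.52 and 0.41). Of 17 citrate cycle genes, 7 passed on both plates, led by the succinate dehydrogenase subunit SDHA (0.54 and 0.48) and the malate dehydrogenase MDH2 (0.42 and 0.45). With total count and number of genes held constant, the counts were 2 of 85 and 0 of 17, and the medians of the respiratory chain 0.16 and 0.13, beside 0.010 and -0.0045 over all genes. Without immature cells they were 6 of 85 and 1 of 17. Over all genes, 0.637% passed with the partial correlation and 0.844% without immature cells.

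Of 11 coregulator genes compared, 0 passed, and 10 were above 0 on both plates. Over all genes, 3.63% passed and 58.6% were above 0 on both. With total count and number of genes held constant, the medians of the coregulators were 0.145 and -0.0081. The closest was the coactivator NCOA2, with 0.33 and 0.298, just below the cut on plate 2, and ppargc1a had 0.22 and 0.14. Neither esrrb (0.26 and 0.27) nor esrra (0.056 and 0.29) passed.

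Genes named for slow and intermediate neurons stood among the closest. Of 9 compared, 5 passed on both plates, namely pcdh9, oxr1a, the NMDA receptor subunit grin1b (0.63 and 0.53), the parvalbumin pvalb6 (0.35 and 0.54) and pcdh17 (0.33 and 0.60). Over all genes, 3.63% passed. With total count and number of genes held constant 3 of the 9 passed, and without immature cells 3 did. The study picked part of these genes on these same cells and some of them name the class, so the count is not independent evidence. Some of the fast and immature neuron genes below also name classes, so the same holds for their counts. Of 12 genes named for fast neurons, 5 had a rho of at most -0.3 on both plates, among them neurod1 (-0.42 and -0.31) and EBF3 (-0.38 and -0.36). Of all genes, 0.279% did. With total count and number of genes held constant, 0 of the 12 stayed at -0.3, and without immature cells 0 of 11. A positive rho of at least 0.3 was found for 1 fast gene, the cholinergic enzyme chata (0.46 and 0.64), which all MNs use. Of 12 immature neuron genes, 3 had a rho of at most -0.3 on both plates, namely nhlh2, nkx6.1 and nfia, and 0 did after either change. The tubulin gene tubb5 had -0.17 and -0.53, and elavl3, which encodes a neuronal RNA-binding protein, had -0.12 and -0.58. A single caudal gene could be compared, at -0.092 and -0.22.

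Ion channel genes set how a neuron fires. Of 39 sodium, calcium and HCN channel genes, 7 (17.9%) passed on both plates, where 3.63% of all genes did. Among them were genes of HCN channels, which open on hyperpolarization. These included both genes listed as HCN4 (0.53 and 0.46, and 0.58 and 0.33), hcn3 (0.58 and 0.39) and hcn2b (0.46 and 0.38), beside the calcium channel genes cacna2d2a (0.51 and 0.50) and CACNA1G (0.34 and 0.38), the latter a T-type channel. With total count and number of genes held constant, 1 of these 7 genes, cacna2d2a, stayed at 0.3 on both plates, and without immature cells 3 did. Of all genes, 0.637% and 0.844% passed after these changes. Of 39 potassium channel genes, 2 passed, a gene listed as KCNA2 (0.40 and 0.42) and kcnk1a (0.32 and 0.36), and 0 after either change, so their share (5.13%) was close to that of all genes (3.63%).

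**Figure D5:**
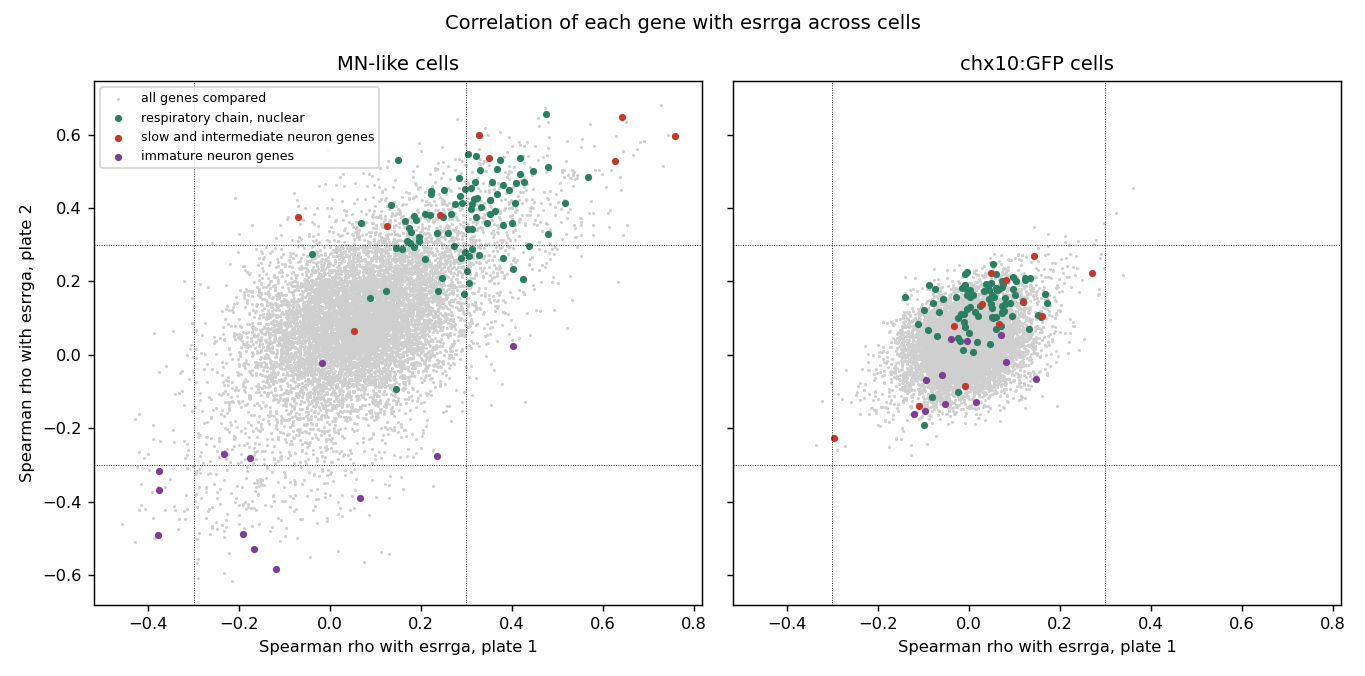
Spearman rho of each gene with esrrga on plate 1 (x axis) and plate 2 (y axis) across MN-like cells (left) and chx10:GFP cells (right), with respiratory chain genes in green, slow and intermediate neuron genes in red and immature neuron genes in purple; dotted lines mark 0.3 and -0.3. Of the respiratory chain genes, 36 of 85 reach 0.3 on both plates in MN-like cells, where 3.63% of all genes do. In chx10:GFP cells 0 of 85 do, where 0.0207% of all genes do. There, 55 of 85 lie above 0 on both plates, beside 3288 of 9643 genes in all.

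In V2a INs, few genes reached the cut of 0.3. Cells with 0 esrrga reads made up 45.7% and 51.4% of chx10:GFP cells, against 16.4% and 35.7% of MN-like cells. Such cells tie in rank, and their part in the lower rho was not tested. Across chx10:GFP cells (n = 300 and 325), 2 of 9643 genes (0.0207%) reached 0.3 on both plates and 0 (0%) reached -0.3, with medians of -0.0062 and 0.030 and r = 0.316 between plates over genes. These were DACH2 (0.36 and 0.45), one of the genes listed under that name, which encodes a transcriptional cofactor, and shisa9b (0.32 and 0.39), whose mouse counterpart is an auxiliary subunit of AMPA receptors. Next came MEGF11 (0.30 and 0.36), the somatostatin gene sst6 (0.28 and 0.31), the peptide receptor rxfp3.2b (0.28 and 0.30) and TNS1 (0.29 and 0.27), a link of integrins to actin. The level of esrrga had a rho of -0.053 and 0.12 with the number of genes detected here, while reads of the GFP reporter had 0.31 and 0.12, against -0.13 and -0.31 for the reporter of the isl1a:GFP line in MN-like cells.

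The genes lowest against esrrga in V2a INs included 2 other orphan nuclear receptors, NR5A2 (-0.34 and -0.25) and a gene listed as NR5A1 (-0.18 and -0.18). Both are among the leading genes of the shox2 V2a-like class, in which esrrga was low. The neurexin ligand NXPH1 (-0.29 and -0.26), the receptor phosphatase PTPRD (-0.27 and -0.25) and the homeobox gene zfhx3b, listed as ZFHX3 (-0.30 and -0.23), lay close to them. Of these, zfhx3b is also a leading gene of the shox2 V2a-like class and among the markers that named it.

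Among the 8782 genes compared in both populations, 0 reached 0.3 on all 4 plates. Of the 365 genes of MN-like cells, 340 could be compared in chx10:GFP cells. Of the 2 genes of chx10:GFP cells, 1 could be compared in MN-like cells. At most 1 gene could thus have reached 0.3 on all 4 plates, so no conclusion on shared genes is drawn from the 0. In chx10:GFP cells the respiratory chain had medians of 0.042 and 0.14 and the citrate cycle 0.016 and 0.13, beside -0.0062 and 0.030 over all genes. Of these lists, 0 of 85 and 0 of 18 genes reached 0.3 on both plates, where 0.0207% of all genes did. Each other list had 0 too, so these counts do not set the lists apart from all genes. Above 0 on both plates were 55 of 85 and 11 of 18, beside 3288 of 9643 genes in all. The difference between the populations was not tested, since cells are not replicates.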

How the data were processed

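Smart-seq2 libraries of sorted single cells on 4 plates were analysed from the deposited raw read counts per gene and well. According to the methods and the submitters' processing notes, the authors mapped reads to GRCz11 with STAR 2.5.3a, kept uniquely mapped reads, and worked in R 4.0.5 with Seurat 4.0.2; the counting program is not given in the sources used here. Unique mapping may lower the counts of near-identical gene copies. Spike-ins held 3.17% and the GFP reporter 0.517% of all counts and were left out of totals. Gene names came from a RefSeq table of another assembly, used for names only; many are human symbols in capitals, and of the genes looked up 23 could be traced only to a group of copies and 8 were not found. A few genes named by these rules are not reported here. No pair of passing wells had identical counts.

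Wells with 2000 to 9000 genes and at most 30% spike-in reads were kept, without a doublet caller, since single cells were sorted. Cells were clustered with Seurat 5.3.0 as in the methods (2000 variable genes, 10 principal components, resolution 0.6, isl1a:GFP plates integrated over 30 dimensions), with the receptor family held out. A cluster took the name of the neuron type with the highest mean z-score if at least 3 of its markers had reads in 10% of cells, unless its 10 leading genes held more markers of another type. Leading genes needed a share of cells 2 times that outside the class, which left out the myelin genes mpz and plp1b, which had reads in 22.6% to 45.5% and 30.7% to 63.7% of cells by population and plate, most often in chx10:GFP cells. This rule was settled after the clusters had been seen, and the names may differ from those of the study. Caudal cells under the other clusterings were looked at after seeing the data.

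Counts were summed per plate and tested with edgeR 4.0.16 (TMM, filterByExpr, quasi-likelihood test, two-sided, adjusted p below 0.05), with DESeq2 1.42.0 as an alternative. CPM are counts scaled to a common library total over the genes of a cell or sum, and per-cell values were log2-transformed with a pseudocount of 1. Spearman correlations used SciPy 1.17.1. Named genes are the 10 highest and 10 lowest by the weaker of both plates' rho in each population and up to 8 members of each list by size of rho. The gene, the lists and the tests were chosen with earlier results of these data known. The fits and correlations were tested on simulated data. Alternatives covered the tool, filters, block, cells, depth, correlation and clustering.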

Additional observations from a re-analysis of the deposited data

Results flagged for a closer look

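Genes named above or in the lists were looked at again where rho with esrrga was positive on both plates of one population and negative on both of the other; the difference between populations was not tested, and weak correlations in sparse counts change sign easily. The largest was sulf2a, with -0.39 and -0.50 in MN-like and 0.29 and 0.18 in chx10:GFP cells, a difference of mean rho (MN-like minus chx10:GFP) of -0.68. It was 0.56 for cox4i1l, which had -0.080 and -0.12 in chx10:GFP cells, unlike most respiratory chain genes. For channels it was -0.51 for CACNA1E, 0.46 for kcnip1b, 0.45 for hcn2b and -0.23 for KCNQ3. It was 0.32 for zfhx3b (ZFHX3), -0.32 for C1QTNF4, -0.25 for a gene listed as HOXC13, and 0.22 for hdac3.

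Wells that failed the limits also held esrrga reads. There were 206 reads in 16 of 125 failing wells of isl1a:GFP plate 1, which is 159 CPM, 512 reads in 11 of 84 wells of chx10:GFP plate 1 and 631 reads in 13 of 59 wells of chx10:GFP plate 2. The 21 failing wells of isl1a:GFP plate 2 held 0 reads.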

How the results depend on the processing

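The higher esrrga level on the isl1a:GFP side kept its direction under all 12 alternatives, of which the limit on mitochondrial reads repeated the main fit. It passed the threshold with DESeq2 (log2 difference 1.71, adjusted p = 0.00326), without a filter on low counts (1.68, adjusted p = 0.0433 by edgeR) and with the replicate number as a block (1.63, adjusted p = 0.0315 by edgeR). The plates share numbers by name only, with a correlation of deviations of 0.0443 over 22804 genes, so the block is no pairing of samples. Leaving out 1 plate gave 1.19 to 2.07. The number of called genes, 145, became 2013 with DESeq2, 661 without the filter, 715 with the block, 728 with all isl1a:GFP wells, 263 without the immature classes (chosen after seeing the data) and 107 to 1508 without 1 plate. With all isl1a:GFP wells, the isl1a:GFP level was 312 CPM. With 15 principal components the lowest MN-like class stood at 170.5 CPM. With a minimum of 10 reads, 42.6% of chx10:GFP cells counted as having esrrga.

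The 365 positive and 28 negative genes in MN-like cells became 556 and 45 with Pearson correlation, 64 and 8 with partial correlation, 126 and 11 with at least 3000 genes per well, and 85 and 6 without immature cells. The negative ones became 43 after thinning, 15 among genes in 25% of cells and 100 in all isl1a:GFP wells. With 1 plate alone there were 613 to 903 positive and 64 to 213 negative. In chx10:GFP cells, the 2 positive genes became 4 with Pearson correlation, 4 after thinning, 9 with at least 3000 genes per well and 4 to 10 with 1 plate alone, and the 0 negative ones became 3 with partial correlation, 5 with at least 3000 genes, 2 without immature cells and 0 to 3 with 1 plate alone. Leaving out 1 plate gave levels of 406 to 781 CPM in MN-like and 182 to 209 CPM in chx10:GFP cells, and shares of 63.4% to 84.8% and 47.1% to 53.8%. A limit of 30% mitochondrial reads removed 0 wells. The line sums hold at least 20121 esrrga reads per plate, and only 2 plates per line give the spread.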
